A study of Xenopus laevis with 18 samples.

Results

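The pellet is the part of the fractionated cell that was recovered apart from the cytosol and the endoplasmic reticulum (ER), and its RNA was compared here between mature eggs and oocytes of the frog Xenopus laevis. The comparison used 6 of the 18 libraries of the series, chosen by their labels: 3 libraries of egg pellet and 3 of oocyte pellet. Oocytes were defolliculated stage VI cells, the full-grown immature germ cells that wait in prophase of meiosis, kept in culture medium at 18 °C. Eggs were cells of the same kind matured in the same medium with 2 µM progesterone and labelled at germinal vesicle breakdown, the stage at which the nucleus breaks down. Every library came from 4 cells, and 5 spike-in RNAs were added to each fraction before extraction. The labels name no transgene or other treatment, and they do not say how the pellet was separated, which frogs the cells came from, or whether replicates were separate cultures. The p-values therefore measure the spread between libraries of a group, estimated over all 18 libraries of the series, and this spread may be technical. Fewer copies per cell cannot be told apart from fewer copies recovered in the pellet.

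A full-grown Xenopus oocyte makes little new RNA and matures on a store of maternal mRNA. Some of these mRNAs are fixed at the vegetal pole: the early pathway carries RNAs such as nanos1 and dazl through the mitochondrial cloud to the germ plasm, and the late pathway brings gdf1 (Vg1) and vegt to the vegetal cortex, where they are held to the cytoskeleton. Progesterone restarts meiosis, the nuclear envelope breaks down, and stored mRNAs are translated or silenced in turn; release of Vg1 mRNA from the cortex at this time is known from staining of oocytes. These statements are background and were not tested here.

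The pellet libraries held 27393452 to 29496364 endogenous estimated counts in oocytes and 32893112 to 33757667 in eggs, so depth did not overlap between the groups. Replicate 1 of each stage had more RNA per spike-in, with 419 endogenous counts per spike-in count in oocytes and 510 in eggs, against 282 to 341 in the other 4 pellet libraries. Levels below are CPM, counts scaled to a common library total with TMM factors, and log2 fold changes are egg minus oocyte with their standard error (SE). Genes that define the oocyte marked both groups: the 26 listed transcripts summed to 3850 to 3903 CPM in oocyte pellets and 3235 to 3633 CPM in egg pellets, with 2 of the 26 at 0 in all 6 libraries. The suffixes .L and .S name the gene copies of the 2 subgenomes of this allotetraploid frog, and transcript models that share a symbol are told apart by their identifier.

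Maturation went with a wide change in the composition of the pellet. Of 25938 transcripts tested, 11316 (43.6%) were called at an edgeR adjusted p under 0.05, of which 5774 (22.3%) were higher and 5542 (21.4%) lower in the egg pellet. Most calls were small: 651 transcripts (2.51%) were higher and 853 (3.29%) lower by at least 2-fold, and the lower and upper quartiles over all tested transcripts were -0.31 and 0.28 on the log2 scale. The 3 egg and 3 oocyte libraries did not overlap for 12967 transcripts (50%), so a lack of overlap, given below for single genes, was common, and for the 12 highest and 12 lowest fold changes named below it was required. Scaling by the summed spike-in counts left 1414 higher and 1229 lower, and limma on the authors' attomolar values left 583 and 457. List counts under these settings, given below, are to be read beside these totals and not beside 22.3 and 21.4%. Every one of the 11316 transcripts kept its direction under both. Both use the same reads, and the median change over all transcripts was 0.04 and 0.001 in place of -0.01. The kept direction is therefore no separate support. Among the lists and classes of at least 8 tested transcripts, the late pathway vegetal mRNAs had the highest share of members that fell. That list is small, with 8 transcripts tested and several of them models of gdf1.S, and the extremely vegetal class followed at 96.2%. The animal pole, cell cycle and histone lists had the highest shares that rose. The lists, unlike the authors' classes, were chosen with earlier results of these data known, so their order is a description.

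**Figure D1:**
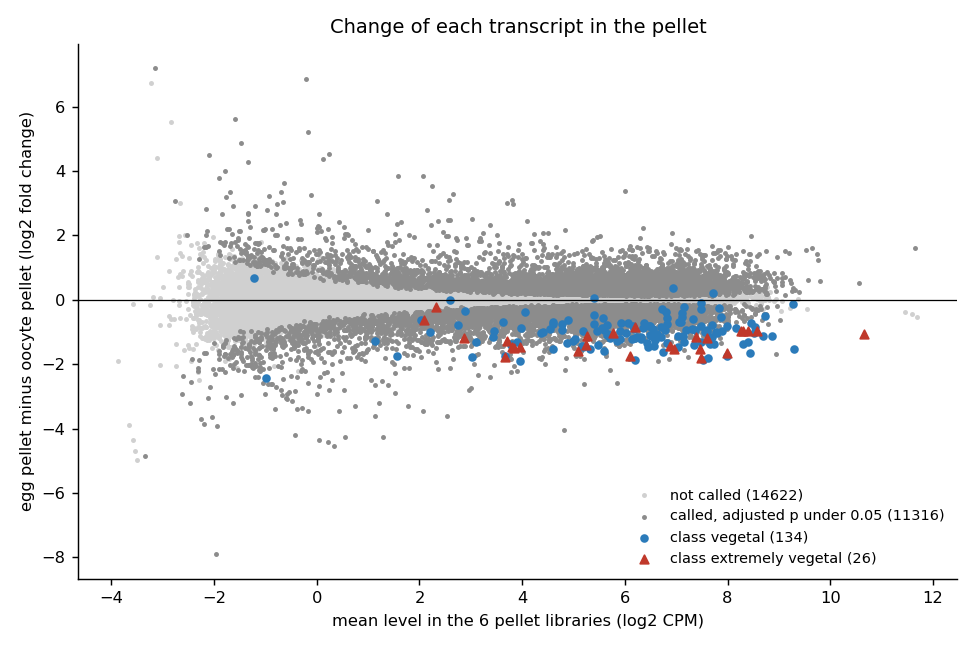
Each point is a tested transcript, with its mean level over the 6 pellet libraries on the x axis (log2 CPM) and its egg minus oocyte log2 fold change on the y axis; dark grey marks the 11316 called transcripts. The 26 transcripts classed extremely vegetal (red triangles) all lie below 0, and the 134 classed vegetal (blue) nearly all do.

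Vegetal mRNAs fell in the egg pellet almost without exception. The authors' tables class transcripts along the animal-vegetal axis in a column headed with an earlier study, that of Sindelka and colleagues, whose method the sources used here do not give. Of the 26 extremely vegetal transcripts 25 fell and 0 rose, against 21.4% lower and 22.3% higher over all tested transcripts, and their median log2 fold change was -1.24 against -0.01. The remaining one, commd7.S, stood at -0.24 ± 0.14 with libraries that did not overlap (edgeR adjusted p = 0.18), and the smallest fall among the called was that of card19.L at -0.63 ± 0.20 (edgeR adjusted p = 0.015), a call lost without egg replicate 1, egg replicate 3 or oocyte replicate 3. Of the 134 vegetal transcripts 127 fell, with a median of -1.0. The exceptions that rose were igsf3.S (0.36 ± 0.07, edgeR adjusted p = 1.3e-04) and anln-like.1.L (0.20 ± 0.07, edgeR adjusted p = 0.017), both named after their values were seen. The libraries of anln-like.1.L overlapped, and its call was lost without egg replicate 3 or oocyte replicate 1. Spike-in scaling left 24 of 26 and 99 of 134 lower, and limma on the attomolar table left 16 and 58, with medians of -1.21 and -0.95 in the latter. Without replicate 1 of both stages 24 and 125 were lower. Transcripts that the authors class as other, a class the sources used here do not define, fell in 110 and rose in 8 of 136 cases.

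RNAs of the germ plasm and the early pathway made up a list of 30 transcripts, of which 29 passed the low-count filter. Of these 21 (72.4%, against 21.4% over all) fell and 3 rose, with a median of -0.85. nanos1.L (gene9962), which encodes a translational repressor of the germ line, had 90.4, 99.8 and 105 CPM in the 3 oocyte pellets and 53.4, 54.8 and 54.9 CPM in the 3 egg pellets. All egg libraries were below all oocyte libraries, and the log2 fold change was -0.85 ± 0.12 (edgeR adjusted p = 6.1e-06). dazl.L (gene8655), an RNA-binding protein of germ cells, stood at 257, 319.9 and 307 CPM in oocytes and 139, 116 and 134 CPM in eggs, a change of -1.19 ± 0.16 (edgeR adjusted p = 4.1e-06). ddx25.L (gene11519), a germ plasm helicase, went from 385, 456 and 443 to 219, 214 and 223 CPM, a change of -0.97 ± 0.14 (edgeR adjusted p = 8.7e-06). These 3 germ line mRNAs were each lowest in replicate 1 among the oocyte pellets, and their groups did not overlap. The germ plasm mRNAs grip2.L and pgat.L changed by -0.97 ± 0.15 and -0.98 ± 0.11, and dnd1.L, which encodes a vertebrate germ cell protein that shields mRNAs, by -0.82 ± 0.10.

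Larger falls came from velo1, sybu, wnt11b, otx1 and efnb1. velo1.L (gene6175), whose protein is an organiser of germ plasm related to zebrafish Bucky ball, had 471, 463 and 465 CPM in oocyte pellets and 159, 136 and 124 CPM in egg pellets. Its 3 oocyte values lay within a narrow band, and the change was -1.74 ± 0.09 (edgeR adjusted p = 7.2e-12). Syntabulin, a kinesin adaptor, is encoded by 2 gene copies that moved alike: sybu.L (gene6425) went from 192, 223 and 220.1 to 80.5, 74.5 and 66.3 CPM and sybu.S (gene6954) from 107, 135 and 135 to 41.5, 33.3 and 37.5 CPM. The changes were -1.52 ± 0.10 and -1.75 ± 0.12 (edgeR adjusted p = 6.1e-11 and 3.5e-10). wnt11b.L (gene7098), the maternal Wnt ligand of the dorsal axis, stood at 420.2, 468 and 463 CPM and then 139, 153 and 141 CPM, a change of -1.64 ± 0.12 (edgeR adjusted p = 2.9e-10). otx1.L, a homeobox gene, changed by -1.62 ± 0.12 and the ephrin ligand efnb1.L by -1.58 ± 0.09. The ubiquitin ligase copies trim36.L and trim36.S, needed for microtubules of the vegetal cortex, changed by -0.98 ± 0.10 and -1.17 ± 0.10.

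Not all members of the early list fell. cep63.L and cep63.S, which encode a centrosome protein, rose by 0.54 ± 0.06 and 0.77 ± 0.15 (edgeR adjusted p = 2.2e-07 and 3.2e-04) and were 2 of the 3 members that rose. Of the lipid droplet protein perilipin 2, plin2.L (gene12201) fell from 487, 544 and 493 to 341, 369 and 355 CPM, a change of -0.52 ± 0.07 (edgeR adjusted p = 7.2e-06). Its other copy plin2.S (gene14482) had 644, 657 and 637 CPM in oocytes and 529, 639.5 and 603 CPM in eggs, groups that overlapped, with a change of -0.13 ± 0.09 that was not called (edgeR adjusted p = 0.27).

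Late pathway mRNAs fell in all 8 transcripts tested of 9 listed, with changes of -0.72 to -1.32 on the log2 scale. The 4 transcript models named gdf1.S, the TGF-beta ligand Vg1, were close to each other at -1.29 ± 0.09 (gene40286), -1.23 ± 0.11 (gene47490), -1.32 ± 0.11 (gene48962) and -1.28 ± 0.13 (gene50666). They share a name and may share reads, so they do not count as 4 genes. The model named by the rule, gene40286, had 156, 189.5 and 179 CPM in oocyte pellets and 68.8, 69.7 and 75.9 CPM in egg pellets (edgeR adjusted p = 1.2e-10). For the T-box transcription factor that specifies endoderm and mesoderm, vegt.L (gene35915) went from 439, 445 and 472 to 277, 267 and 280.5 CPM and vegt.S (gene2660) from 322, 335 and 338 to 179, 162 and 171 CPM. Egg and oocyte libraries were apart for both copies, with changes of -0.72 ± 0.09 and -0.96 ± 0.06 (edgeR adjusted p = 1.1e-06 and 1.2e-10). The RNA-binding protein mRNAs bicc1.L and bicc1.S changed by -0.88 ± 0.06 and -1.02 ± 0.08.

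**Figure D2:**
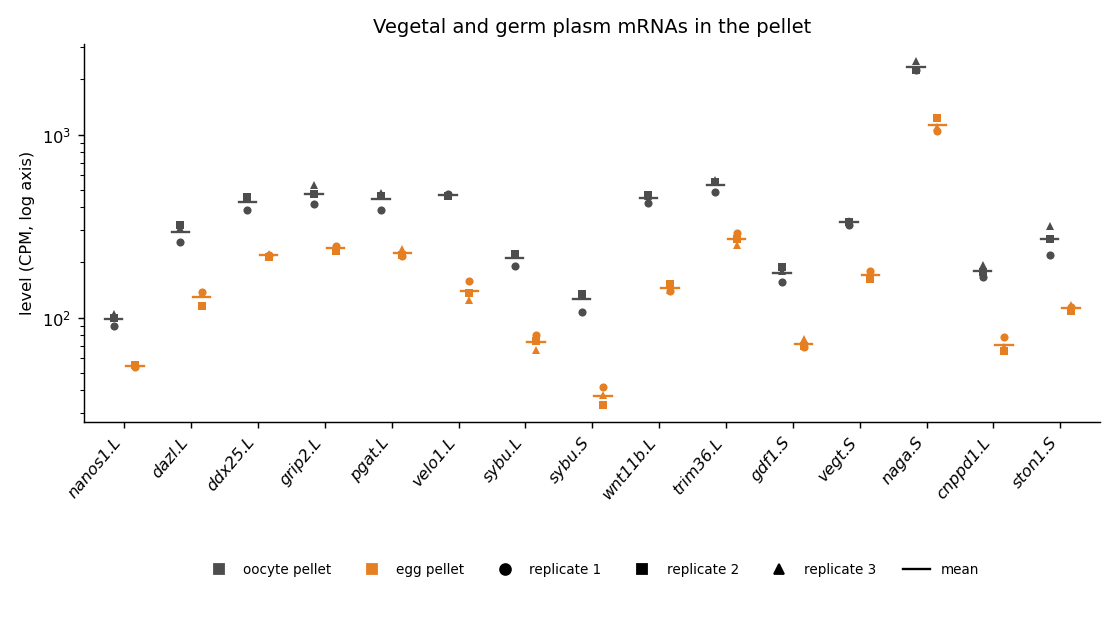
Levels of 15 mRNAs, vegetal and germ plasm ones and the unclassed ston1.S, in each pellet library (CPM, log axis). Oocytes are in grey and eggs in orange, with a marker shape per replicate and a bar at the mean of 3. For each of the 15 genes the 3 egg libraries lie below the 3 oocyte libraries; gdf1.S is the model gene40286.

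The vegetal classes held mRNAs that the 2 lists did not name, and these fell as well: 14 of 15 extremely vegetal and 117 of 123 vegetal transcripts outside the lists. The proprotein convertase pcsk6.L (gene48978) went from 308, 351 and 346 to 114, 86.0 and 89.5 CPM, a change of -1.79 ± 0.10 (edgeR adjusted p = 1.4e-11). cnksr2.L, a scaffold of Ras signalling, and kcnj5.L, a potassium channel, changed by -1.86 ± 0.13 and -1.86 ± 0.08, and the kinesin kif13b.L by -1.52 ± 0.11. The lysosomal enzyme mRNA naga.S (gene15550) was at 2266, 2256 and 2518 CPM in oocyte pellets and 1047, 1234 and 1097 CPM in egg pellets. Its change of -1.06 ± 0.15 (edgeR adjusted p = 4.6e-06) was far from that of its other copy naga.L at -0.22 ± 0.07, a copy classed animal that lost its call without egg replicate 1 or without oocyte replicate 2. cnppd1.L (gene17187) changed by -1.33 ± 0.09 and the unclassed stonin mRNA ston1.S (gene8682) by -1.25 ± 0.13. The Polycomb mRNA cbx2.S, classed animal, fell from 182, 201 and 202 to 57.2, 45.2 and 53.4 CPM, a change of -1.91 ± 0.08 (edgeR adjusted p = 2.9e-13).

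The same mRNAs stood at higher levels in the cytosol and ER of eggs while they were lower in the pellet. Of the 26 extremely vegetal transcripts all 26 were called higher in egg than in oocyte cytosol and 24 in egg than in oocyte ER, with medians of 1.91 and 1.57. Changes within the cytosol or the ER alone, here and below, were computed with TMM scaling only. Endogenous counts per spike-in count were 624 to 883 in oocyte ER and 414 to 482 in egg ER. They were 1159 to 1431 in oocyte cytosol and 1328 to 1683 in egg cytosol. Over all tested transcripts 37% were called in either direction between egg and oocyte cytosol and 18.4% were higher in eggs. Between egg and oocyte ER 28.5% were called in either direction and 12.4% were higher in eggs. Of all tested transcripts 2833 (10.9%) fell in the pellet, rose in the cytosol and had a called difference between the 2 changes. 25 of the 26 extremely vegetal and 117 of the 134 vegetal transcripts did so. The cytosol change of sybu.L was 3.94 ± 0.12, and the pellet change minus the cytosol change was -5.47 ± 0.16 (edgeR adjusted p = 3.2e-16). The cytosol change of naga.S was 4.0 ± 0.17, from 56.7 ± 12.2 to 909.6 ± 46.7 CPM (SD, n = 3), with a difference of -5.06 ± 0.22 (edgeR adjusted p = 7.4e-14). Germ plasm mRNAs spanned a range, with -3.83 ± 0.13 for velo1.L, -2.67 ± 0.23 for nanos1.L, -1.97 ± 0.23 for ddx25.L and -1.69 ± 0.17 for pgat.L (edgeR adjusted p at most 2.3e-07).

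The authors' deposited percentages, the share of a transcript's copies found in the pellet of the 3 fractions, put these mRNAs on another scale. For sybu.L the share was 84.3, 73.5 and 78.0% in oocytes of replicates 1 to 3 and 27.8, 11.3 and 10.4% in eggs. For naga.S it was 85.4, 73.7 and 81.7% and then 24.4, 14.1 and 13.4%. nanos1.L kept more of its copies in the pellet, with 85.9, 81.3 and 83.2% and then 67.7, 43.6 and 42.5%, and so did ddx25.L with 87.1, 78.6 and 82.3% and then 77.1, 50.8 and 51.9%. Egg replicate 1 had the highest share of the egg libraries for each of these 4 mRNAs, and no egg library reached the oocyte range. The shares of vegt.L were 57.9, 40.5 and 48.3% in oocytes and 51.0, 28.0 and 29.4% in eggs, where the groups overlapped.

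More of the cell cycle mRNAs rose than fell in the egg pellet. Of 115 tested transcripts of meiotic maturation and the cell cycle, out of 118 listed, 68 rose and 31 fell, with a median of 0.34. These are 59.1 and 27.0% of the list, against 22.3% higher and 21.4% lower over all tested transcripts. The share that rose was above the background, whereas the share that fell was not far from it. gmnn.L (gene19653), the replication licensing inhibitor geminin, had 186, 185 and 185 CPM in oocyte pellets and 407, 458 and 438 CPM in egg pellets. The groups were far apart relative to their spread, with a change of 1.23 ± 0.06 (edgeR adjusted p = 2.6e-12). The cohesin subunit rad21.L (gene3973) went from 174, 155 and 155 to 389.6, 396 and 388 CPM, a change of 1.27 ± 0.06 (edgeR adjusted p = 3.4e-12). Members of the list named after their values were seen were ccna1.L at 1.46 ± 0.09, ccna1.S at 1.34 ± 0.09, both cyclin A1, the licensing factor cdc6.L at 1.5 ± 0.10 and fbxo43.L at 1.38 ± 0.10, which encodes the Emi2 protein that holds the egg in metaphase. Spike-in scaling left 30 higher and 4 lower, whereas limma on the attomolar table gave 21 and 0. Without replicate 1 of both stages 66 were higher.

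Regulators of the maturation kinase cascade had small changes. mos.L (gene3865), the kinase upstream of MAP kinase, had 347, 346 and 352 CPM in oocytes and 325, 318 and 329 CPM in eggs, a change of -0.11 ± 0.05 that was not called although the libraries did not overlap (edgeR adjusted p = 0.12). Cyclin B1 was at 0.25 ± 0.11 for ccnb1.L, not called, and at 0.34 ± 0.11 for ccnb1.S (edgeR adjusted p = 0.016), a call that was lost without egg replicate 2, egg replicate 3 or oocyte replicate 3. Aurora A rose in both copies, aurka.L by 0.41 ± 0.08 and aurka.S by 0.52 ± 0.08, and wee1.S rose by 0.36 ± 0.07 (edgeR adjusted p at most 1.9e-04). Transcripts of single subunits of the replicative helicase went the other way: mcm4.L (gene3021) from 228, 249.5 and 233 to 129.5, 127 and 131 CPM and mcm5.L (gene19282) from 240.0, 236 and 234 to 160.5, 159 and 159 CPM. Other subunits and copies of the helicase are not given here. The changes were -0.87 ± 0.05 and -0.57 ± 0.04 (edgeR adjusted p = 2.7e-11 and 1.3e-09), and neither gene had overlapping groups.

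Further genes came from the 12 highest fold changes of well expressed named genes. stil.L (gene12998), needed for centriole duplication, had 158, 139.6 and 139.5 CPM in oocyte pellets and 424, 474 and 457 CPM in egg pellets, a change of 1.63 ± 0.09 (edgeR adjusted p = 1.9e-11). The centrosomal ssx2ip.L (gene7576) changed by 1.53 ± 0.07 and the DNA helicase pif1.L (gene7706) by 1.51 ± 0.10 (edgeR adjusted p = 3.1e-12 and 1.3e-10). The rule that ranked these genes required groups that do not overlap. The spindle protein mRNA hmmr.L, named after its values were seen, rose by 1.43 ± 0.07. Others among the 12 were the transcription factor mafb.S at 1.98 ± 0.11, the autophagy protease atg4c.L at 1.56 ± 0.10, the G protein subunit gna11.S at 1.55 ± 0.06 and ccdc50.S at 1.53 ± 0.08.

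Many histone mRNAs were also higher. Of the 31 histone transcripts tested 19 (61.3%, against 22.3% over all) rose, 1 fell and 11 were not called, with a median of 0.59. The most abundant model, h2afx.L (gene13554) for histone H2A.X, stood at 2011, 1767 and 1782 CPM in oocyte pellets and 4925, 6742 and 5385 CPM in egg pellets. Its change was 1.62 ± 0.10 (edgeR adjusted p = 4.1e-11), and a second model of that name, gene1655, changed by 1.46 ± 0.08. Core histones rose as well: hist1h2bj.S (gene49174) went from 219, 207 and 209.8 to 516, 603 and 582 CPM, a change of 1.42 ± 0.06 (edgeR adjusted p = 9.0e-13). The H3 and H4 models hist1h3g.L and hist1h4d.L rose by 1.5 ± 0.12 and 1.51 ± 0.14. Smaller rises came from the replacement variants h2afz.L (0.74 ± 0.08) and h3f3b.L (0.63 ± 0.08 for gene662) and from the oocyte linker histone h1foo.L (0.36 ± 0.11), whose call was lost without egg replicate 2. The linker histone h1f0.L was at -1.01 ± 0.21 (edgeR adjusted p = 3.6e-04), and at -0.57 without oocyte replicate 2. Histone genes are near copies of each other, so how reads were split among them is uncertain. Of the proteins that bind histones or their mRNAs, slbp.L rose by 0.60 ± 0.06 while slbp.S was at -0.50 ± 0.06 (edgeR adjusted p = 1.7e-08 and 2.3e-07). Together with these the list of 35 had 20 higher and 3 lower, against 12 and 1 with spike-in scaling and 11 and 0 with limma on the attomolar table.

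The listed mRNAs of the animal pole moved against the vegetal ones, but the authors' animal classes did not. Of 18 tested transcripts of 23 listed, 12 (66.7%, against 22.3% over all) rose and 1 fell, with a median of 0.47. The ETS factor ets2.S (gene209) had 102, 95.2 and 96.0 CPM in oocyte pellets and 208, 210.4 and 216 CPM in egg pellets, and dand5.L (gene5838), a secreted Nodal antagonist, 140.3, 137 and 129.5 and 252, 256 and 261 CPM. Egg libraries were above oocyte libraries for both, with changes of 1.11 ± 0.07 and 0.92 ± 0.06 (edgeR adjusted p = 2.5e-11 and 1.1e-10). The HMG box factor sox3.S rose by 1.46 ± 0.10 and sox3.L by 1.02 ± 0.08, and foxi2.S and foxi2.L, which encode an activator of ectoderm genes, by 1.00 ± 0.09 and 0.87 ± 0.07. grhl1.L, a Grainyhead factor, was at -0.09 ± 0.07 and not called. The member that fell, foxi1.L, was near the floor with 1.14, 1.20 and 0.862 CPM in oocytes, and its call was lost without egg replicate 2. In the authors' class of 286 extremely animal transcripts 73 rose and 80 fell, shares of 25.5 and 28.0% against 22.3 and 21.4% over all transcripts. In their class of 10747 animal transcripts 3476 (32.3%) rose and 2925 (27.2%) fell. The median change was 0.03 in both classes. With spike-in scaling 7 of the 18 listed transcripts were higher and 0 lower.

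**Figure D3:**
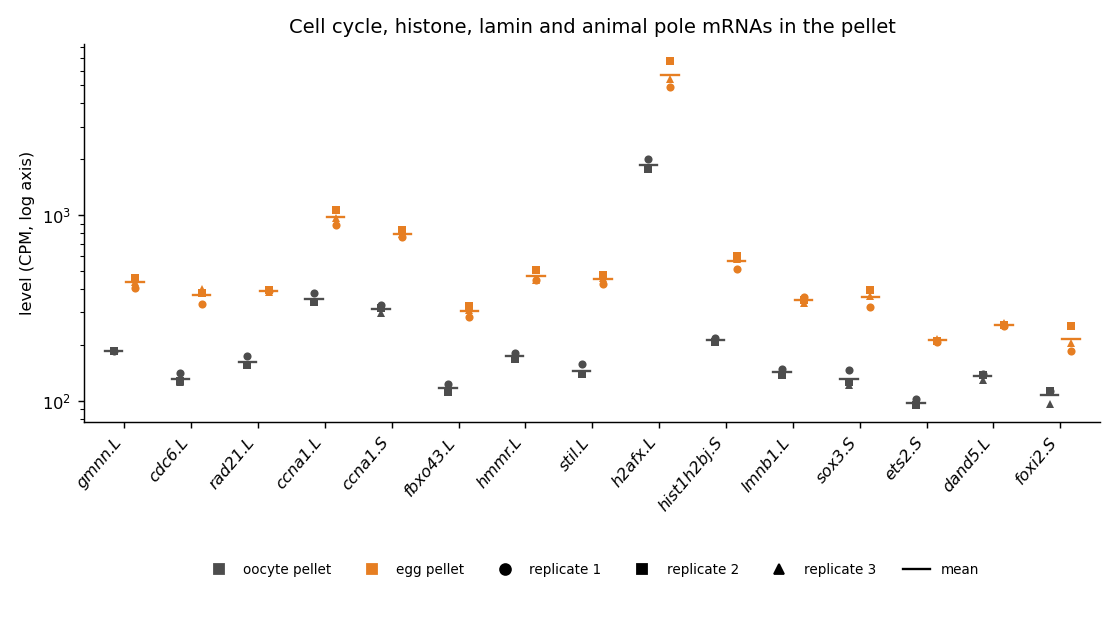
Levels of 15 cell cycle, histone, lamin and animal pole mRNAs in each pellet library (CPM, log axis), with oocytes in grey, eggs in orange, a marker shape per replicate and a bar at the mean of 3. For each gene the 3 egg libraries lie above the 3 oocyte libraries; h2afx.L is the model gene13554.

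Most of the cell cycle, histone and animal pole mRNAs that rose in the pellet fell in the cytosol. Over all tested transcripts 3144 (12.1%) rose in the pellet, fell in the cytosol and had a called difference between the 2 changes. In the cell cycle list 55 of 115 did so, among the histones and their partners 19 of 35, and among animal pole mRNAs 9 of 18. For stil.L the cytosol change was -1.80 ± 0.09 and the difference 3.43 ± 0.13 (edgeR adjusted p = 1.1e-14). hmmr.L stood at -1.89 ± 0.07 in the cytosol, and h2afx.L (gene13554) at -0.84 ± 0.10, from 3882 ± 269 to 2173 ± 14.2 CPM (SD, n = 3). The share of the copies of stil.L found in the pellet was 6.93, 3.25 and 4.23% in oocytes and 43.5, 28.1 and 25.2% in eggs, so every egg library lay above every oocyte library. ccna1.L had 8.34, 4.28 and 5.51% and then 38.7, 26.3 and 23.4%. foxi2.S and foxi2.L were not among the mRNAs that fell in the cytosol, where they were at 0.13 ± 0.09 and 0.45 ± 0.07.

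Over all transcripts, the pellet change was above the cytosol change for 6149 transcripts and below it for 6080, and above the ER change for 5157 and below it for 4180 (edgeR adjusted p under 0.05), 47.1% and 36% of those tested. These splits rest on the scaling. With spike-in scaling, which moved the median difference from the cytosol from -0.01 to -0.22, 1464 were above and 3203 below, and for the ER, with the median moved from 0.02 to 0.77, 9346 were above and 293 below. limma on attomolar values gave 675 above and 3540 below the cytosol change, and 3514 above and 207 below the ER change. The differences from the cytosol printed above for vegetal mRNAs and for stil.L are larger than the shift of -0.45 that limma on the attomolar table gave the median of all transcripts.

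**Figure D4:**
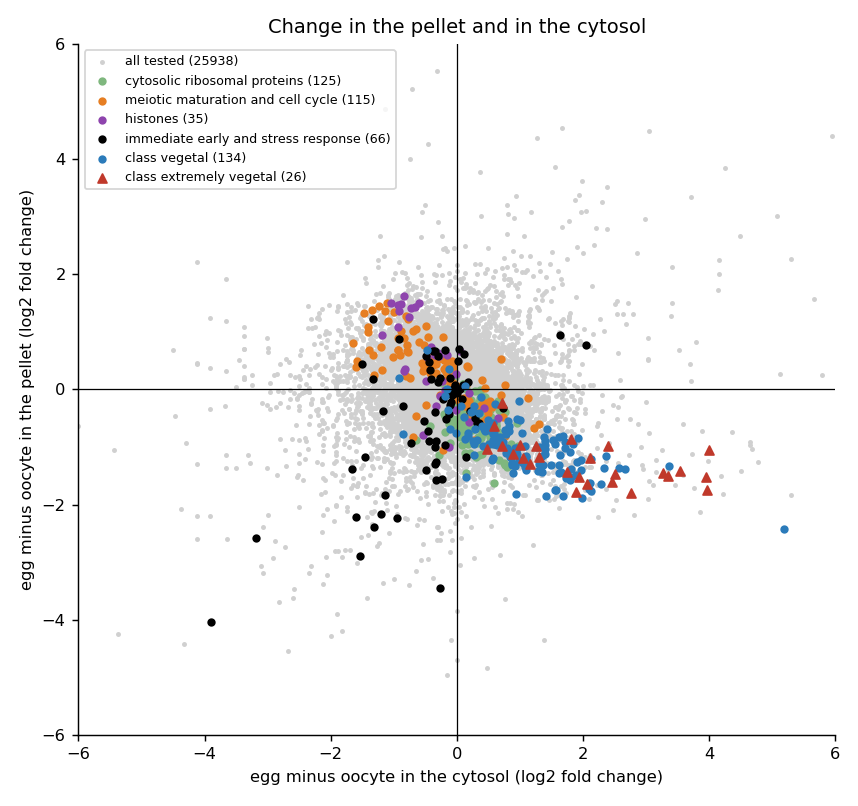
Each point is a transcript, with its egg minus oocyte log2 fold change in the cytosol on the x axis and in the pellet on the y axis; 10 transcripts lie outside the limits of 6. Extremely vegetal (red triangles) and most vegetal transcripts (blue) lie in the lower right, and several stress response transcripts (black) in the lower left. Of 115 cell cycle transcripts (orange) 55 were called to the upper left and 21 to the lower right. For the 35 histone and partner transcripts (purple) these numbers were 19 and 2, and for 125 cytosolic ribosomal proteins (green) 0 and 72.

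Some mRNAs fell in the egg pellet and in both other fractions. Of all tested transcripts 300 (1.16%) were called lower in pellet, cytosol and ER, and 11 of the 66 tested transcripts of the immediate early and stress response list were among them. The calls in cytosol and ER rest on TMM scaling only. gadd45a.L (gene2743), a growth arrest and DNA damage gene, had 104, 130.4 and 109 CPM in oocyte pellets and 5.98, 6.75 and 8.06 CPM in egg pellets. That is a change of -4.05 ± 0.11 (edgeR adjusted p = 9.6e-16), beside -3.90 ± 0.12 in the cytosol and -4.10 ± 0.12 in the ER. gadd45a.S (gene39030) went from 133, 156 and 135 to 23.3, 21.8 and 25.9 CPM, a change of -2.58 ± 0.10 (edgeR adjusted p = 1.6e-13). Outside the list the ephrin ligand efna1.S (gene43718), classed extremely animal, behaved alike, with 94.5, 87.8 and 89.8 CPM and then 14.3, 14.4 and 16 CPM. It fell by 2.60 ± 0.09 on the log2 scale in the pellet, and its cytosol change was -3.64 ± 0.10. The lipase lipg.L, named after its values were seen, changed by -1.57 ± 0.05 in the pellet and -2.09 ± 0.06 in the cytosol.

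In all, 34 of the 66 stress response transcripts (51.5%, against 21.4% over all) fell in the pellet. The 14 that rose (21.2%) were at the 22.3% over all. Oocyte pellet replicate 2 stood apart for part of them. fos.L (gene16777), an AP-1 factor, had 25.8, 119.6 and 53.7 CPM in the oocyte pellets and 14.4, 15.2 and 14.7 CPM in the egg pellets. The high value was that of replicate 2, and the change of -2.17 ± 0.31 (edgeR adjusted p = 6.4e-06) became -1.43 without it. fos.S (gene4953) had 25.7, 126 and 51.5 CPM and then 21.8, 22.8 and 23.7 CPM. Its change of -1.58 ± 0.31 became -0.77 without replicate 2, and that of the stress factor atf3.S went from -2.90 ± 0.64 to -1.76. jun.L showed the same order among oocyte libraries, 17.2, 54.1 and 29.3 CPM, but its lowest oocyte value was above all egg values of 6.93, 8.15 and 6.68 CPM. Without oocyte replicate 2 the list had 27 lower and 15 higher, and its median was -0.17 in place of -0.31. The nuclear receptor nr4a1.L and the thioredoxin regulator txnip.L were also highest in replicate 2 and fell by 1.84 ± 0.12 and 1.38 ± 0.12 on the log2 scale. btg1.S and klf2.L, of the same list, rose by 0.66 ± 0.05 and 0.57 ± 0.06.

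Some markers of follicle cells, the somatic cells that surround the oocyte, were also high in oocyte replicate 2, and others were low in that library. Of its 48 members above the low-count filter that library was the highest of the 3 oocyte pellets for 16 and the lowest for 20, among the latter anxa1.L. gja1.L, a gap junction gene, had 2.15, 18.9 and 2.85 CPM in the oocyte pellets and 5.78, 5.44 and 4.80 CPM in the egg pellets. The receptor of follicle stimulating hormone, fshr.L, was at 0.242, 7.87 and 1.36 CPM in oocytes against 1.85, 2.85 and 2.27 CPM in eggs, and the nuclear receptor nr0b1.L at 1.11, 8.91 and 1.23 CPM against 1.82, 4.28 and 2.90 CPM. In these 3 cases, picked for that pattern, oocyte replicate 2 was the highest library and the other 2 oocyte libraries were below all 3 egg libraries, and none of the 3 changes was called. Over the whole marker list of 68 transcripts the summed level was 414 to 436 CPM in oocyte pellets and 421 to 463 CPM in egg pellets, with 2 at 0 and 28 under 1 CPM in all 6 libraries. Of this sum cyp17a1.L alone held 125, 131 and 124 CPM in the oocyte pellets, so the sum says little about members at a few CPM. These levels do not show whether a listed mRNA came from follicle cells or from the oocyte itself. The part of follicle cells in the stress response result was not tested.

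Of 48 follicle cell markers that passed the filter, 5 (10.4%, against 22.3% over all) rose and 11 (22.9%) fell. The share that fell was near the 21.4% over all transcripts and is not a result about the list, and the values of single members that follow are a description. hsd3b1.L (gene16325), a steroid dehydrogenase, was at 12.2, 10.1 and 11.2 CPM in oocytes and 37.8, 60.2 and 42.8 CPM in eggs, a change of 2.08 ± 0.17 (edgeR adjusted p = 2.5e-09). The steroid hydroxylase cyp17a1.L (gene632) had 125, 131 and 124 CPM and then 119, 124 and 130.4 CPM, groups that overlapped (change -0.02 ± 0.07). gata6.S rose by 1.13 ± 0.13, the annexins anxa1.L and anxa1 were at -0.85 ± 0.11 and -0.46 ± 0.09, and the sterol carrier star.S fell from 3.18, 5.57 and 3.58 to 1.53, 1.64 and 2.03 CPM. Blood, immune and liver markers summed to 24.8 to 27.8 CPM in oocytes and 48.4 to 53.0 CPM in eggs, and the anion exchanger slc4a1.L, the highest member in each library, rose from 19.6, 16.2 and 18.0 to 39.8, 44.0 and 42.5 CPM; 43 of the 47 were under 1 CPM and 15 at 0 in all 6 libraries. Of the 8 of them that passed the filter 2 (25%, against 22.3% over all) rose and 0 fell, too few for a result about the list. Some mRNAs named for their fold change rose in the ER as well. crispld2.L (gene8916), a secreted protein gene and the highest fold change of the rule, had 18.0, 23.5 and 18.9 CPM in oocyte pellets and 147, 269 and 210.3 CPM in egg pellets. Its change was 3.37 ± 0.17 (edgeR adjusted p = 3.7e-12), with 1.93 ± 0.32 in the cytosol and 3.37 ± 0.22 in the ER. The matrix protein thbs2.L (gene35224) was at 54.1, 47.7 and 78.1 CPM and then 212, 271 and 268 CPM (change 2.06 ± 0.18, and 2.38 ± 0.26 in the ER). The phosphate transporter slc34a2.S was at 1.95 ± 0.23 in the pellet and 2.04 ± 0.29 in the ER for gene42603, and at 1.73 ± 0.26 and 1.71 ± 0.29 for gene4762. mmp1.S, a matrix protease, and hpgd.L, a prostaglandin dehydrogenase, both named after their values were seen, rose by 3.86 ± 0.31 and 3.52 ± 0.19 in the pellet and by 2.92 ± 0.43 and 1.29 ± 0.20 in the ER. Only 40 transcripts (0.154%) were called higher in all 3 fractions, a count made with TMM scaling alone. Of the 48 follicle cell markers 3 were among them, and 0 were called lower in all 3 fractions.

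mRNAs for ribosomes and mitochondria formed the largest lists in which falls outnumbered rises. Of 125 cytosolic ribosomal protein transcripts tested 110 (88.0%, against 21.4% over all) fell and 1 rose, with a median of -0.57. In the cytosol 78 of them rose, where 18.4% of all transcripts did. In the ER 58 fell and 16 rose, where 16.1 and 12.4% of all transcripts did. The cytosol and ER counts were made with TMM scaling only. rpl6.L (gene2290) had 201, 196 and 190.4 CPM in oocyte pellets and 86.4, 96.6 and 91.6 CPM in egg pellets, a change of -1.10 ± 0.06 (edgeR adjusted p = 8.5e-12), and rpl32.L changed by -1.22 ± 0.08. The exception that rose was rpsa.L at 0.21 ± 0.07, a call lost without oocyte replicate 1 or 3. Of 119 transcripts of oxidative phosphorylation 80 (67.2%) fell and 4 (3.36%) rose, with a median of -0.44. The ATP synthase subunits atp5mf.S and atp5pd.S were at -1.32 ± 0.08 and -0.98 ± 0.07, whereas both copies of the Rieske protein of complex III rose, uqcrfs1.L by 0.71 ± 0.10 and uqcrfs1.S by 0.53 ± 0.09. Mitochondrial ribosomal proteins had 40 (41.2%) lower and 17 (17.5%) higher of 97, with mrpl57.S at -1.04 ± 0.10 and mrps2.S at 0.63 ± 0.10.

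These counts were small shifts of many genes and depend on the scaling. Spike-in scaling left 40 ribosomal protein, 34 oxidative phosphorylation and 7 mitochondrial ribosomal protein transcripts lower, and limma on attomolar values 13, 14 and 1. Over all 25938 tested transcripts these settings left 1229 and 457 lower, in place of 5542. The list medians moved little, to -0.52, -0.38 and -0.11 with limma. The lists hold short transcripts, with median lengths of 1339, 1428 and 1863 nucleotides. The 3247 tested transcripts of the length class around these medians had a median change of -0.02, with 18.2% higher and 18.9% lower. The shorter classes, of median length 401 and 792 nucleotides, had medians of -0.083 and -0.069. In these, 7.12 and 12% were higher and 16.5 and 17.3% lower. The classes include members of the lists themselves. With 4 lists left out, these and the proteasome list, the class around the list medians had a median change of 0.006. There 19% were higher and 16.3% lower. The shorter classes then had medians of -0.068 and -0.03, with 7.33 and 12.5% higher and 14.7 and 13.9% lower. The longest class, of median length 10312 nucleotides, had a median of -0.068. The part of transcript length in the falls of these lists was not tested.

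Of 33 glycolysis transcripts 13 (39.4%, against 21.4% over all) fell and 5 (15.2%, against 22.3%) rose. gapdh.S (gene16557) went from 237, 211 and 241 to 125, 86.2 and 96.8 CPM, a change of -1.16 ± 0.10 (edgeR adjusted p = 2.9e-09), and pgam1.S, a phosphoglycerate mutase classed vegetal, was at -0.84 ± 0.06, while pgk1.L rose by 0.27 ± 0.07. Of 60 proteasome transcripts 23 (38.3%) fell and 6 (10%) rose, with psmd14.S at -0.76 ± 0.09 and psmb2.L at -0.59 ± 0.06 against psmd12.L at 0.16 ± 0.05. With spike-in scaling 3 glycolysis and 3 proteasome transcripts were lower, where 1229 of all 25938 transcripts were.

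Lists of the secretory pathway, lysosome and cytoskeleton held members that rose and members that fell. Of 86 transcripts of ER translocation, folding and quality control 31 (36%, against 22.3% over all) rose and 16 (18.6%, against 21.4%) fell. The ER stress kinase eif2ak3.S (gene7661) had 143, 126 and 138 CPM in oocyte pellets and 292, 283 and 291 CPM in egg pellets. Its pellet change of 1.09 ± 0.06 stood against -2.25 ± 0.06 in the cytosol, a difference of 3.34 ± 0.09 (edgeR adjusted p = 2.4e-16). The chaperone dnajb11.S rose by 0.65 ± 0.06, and sec62.L, of the translocon, was at -0.48 ± 0.06. Of 73 lysosomal transcripts 26 (35.6%) rose and 14 (19.2%) fell, among them the channel mcoln1.L at 0.79 ± 0.06, the protease lgmn.S at 1.03 ± 0.08 and the proton pump subunit atp6v0d1.L at -0.71 ± 0.05. Spike-in scaling left 2 higher and 2 lower in the ER list and 7 and 1 in the lysosomal one.

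Of 85 cytoskeletal transcripts 27 (31.8%) rose and 23 (27.1%) fell, shares not far from the 22.3 and 21.4% over all. Lamin B1, of the nuclear lamina, rose in both copies: lmnb1.L (gene18772) from 148, 138 and 145 to 363, 348 and 337 CPM and lmnb1.S (gene9125) from 122, 106 and 115 to 302, 295 and 300.4 CPM. The changes were 1.28 ± 0.07 and 1.39 ± 0.06 (edgeR adjusted p = 1.0e-11 and 1.9e-13), with no overlap between groups. Vinculin and alpha spectrin mRNAs went the other way, vcl.S by -0.81 ± 0.06 and sptan1.L by -0.62 ± 0.06. With spike-in scaling 4 were higher and 1 lower.

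Of 93 regulators of stored mRNA 34 (36.6%) were higher and 28 (30.1%) lower, against 22.3 and 21.4% over all. caprin2.L (gene20383), an RNA granule protein, fell from 334, 276 and 322 to 135, 119.5 and 126 CPM, a change of -1.29 ± 0.07 (edgeR adjusted p = 4.0e-12), and the translational repressor lsm14b.L was at -0.80 ± 0.05. The cytoplasmic poly(A) polymerase papd4.S and the polyadenylation factor cpsf4.L rose by 0.83 ± 0.06 and 0.95 ± 0.09, and btg4.L, an adaptor of the deadenylase named after its values were seen, by 1.13 ± 0.11. In the maternal Wnt pathway 19 of 68 (27.9%) rose and 20 (29.4%) fell, also near the shares over all transcripts. Beta-catenin, ctnnb1.L (gene5453), was at 306, 275 and 277 CPM in oocytes and 543, 509 and 534 CPM in eggs, a change of 0.89 ± 0.06 (edgeR adjusted p = 3.1e-10). Its kinase gsk3a.L rose by 1.07 ± 0.07, while the ligand wnt5a.S was at -0.53 ± 0.07. Spike-in scaling left 6 higher and 11 lower in the first list and 5 and 3 in the second.

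Of 24 tested transcripts of oocyte identity 10 (41.7%) fell and 3 (12.5%) rose, against 21.4 and 22.3% over all, and 3 fell by at least 2-fold, velo1.L and dazl.L among the former. kit.S, the receptor of stem cell factor, went from 35.6, 37.1 and 37.6 to 12.8, 11.7 and 13.4 CPM, a change of -1.54 ± 0.09 (edgeR adjusted p = 2.0e-11). The 2 copies of the growth factor gdf9 parted, gdf9.L at 0.25 ± 0.05 and gdf9.S at -0.94 ± 0.06. Of the 8 zona pellucida transcripts 5 were not called; zp4.S and zp4.L rose by 0.33 ± 0.07 and 0.28 ± 0.07 and zpd.L was at -0.30 ± 0.06, and none of the 3 kept a call with spike-in scaling. Of 10 nuclear noncoding and small RNAs only 2 passed the filter: terc.L (gene37862), the telomerase RNA, went from 42.1, 75.2 and 64.8 to 19.9, 21.2 and 28.9 CPM and rn7sk from 6.33, 10.4 and 6.40 to 4.25, 4.22 and 5.97 CPM. The fall of terc.L by 1.38 ± 0.16 (edgeR adjusted p = 2.7e-07) stood against 2.34 ± 0.24 in the cytosol, and the call of rn7sk was lost without egg replicate 1 or oocyte replicate 2.

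**Figure D5:**
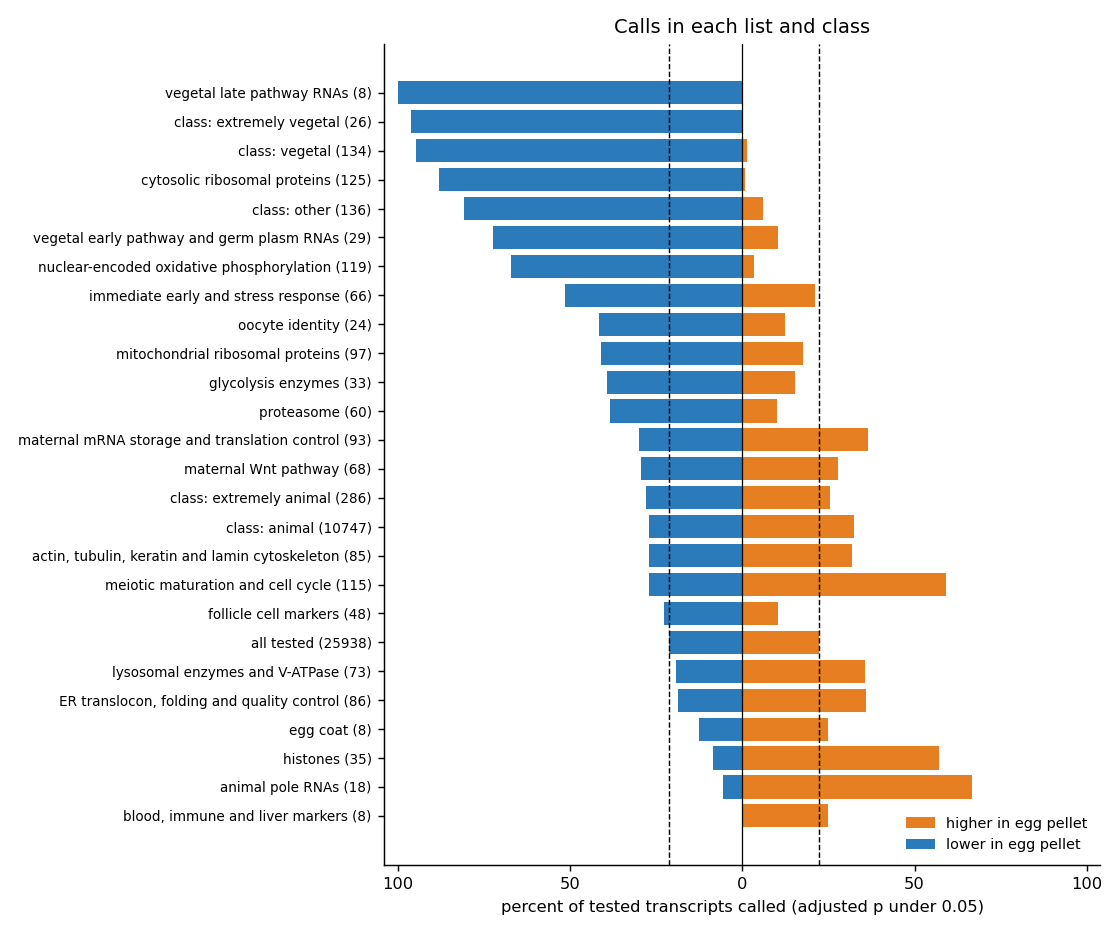
Percent of the tested transcripts of each list or class that were called higher (orange, to the right) or lower (blue, to the left) in the egg pellet, with the number tested in brackets. Dashed lines mark the 22.3% higher and 21.4% lower over all 25938 transcripts; vegetal classes and ribosomal proteins reach far to the left, and animal pole, cell cycle and histone transcripts far to the right.

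Where both gene copies of the 2 subgenomes were called, most pairs changed in the same direction. Among 4492 pairs with 1 tested model each, both copies were called in 1610 pairs, of which 765 were higher in both, 637 lower in both and 208 opposite. In 1607 pairs only 1 copy was called and in 1275 neither was. Across pairs the changes of the .L and .S copies had a Pearson r of 0.470 and a Spearman rho of 0.509, given as a description because the copies share libraries and may share reads. The kinase plk3.L, classed vegetal, fell from 659.8, 707 and 702 to 309.7, 316 and 325 CPM, and plk3.S, classed animal, rose from 340.2, 341 and 325 to 401, 439.9 and 434 CPM. Their changes were -1.12 ± 0.10 and 0.34 ± 0.08 (edgeR adjusted p = 1.7e-08 and 0.0021). cnppd1.L at -1.33 ± 0.09 and cnppd1.S at 0.27 ± 0.07 parted in the same way, as did the unconventional myosin copies myo1c.L at -0.56 ± 0.07 and myo1c.S at 0.95 ± 0.06 and the Golgi tether copies golgb1.L at -1.20 ± 0.08 and golgb1.S at 0.26 ± 0.06. The plk3, myo1c and golgb1 pairs were named after their values were seen. Of the zinc finger gene znf516.S the model gene34535 was at -0.73 ± 0.22, a call lost without egg replicate 3, and the model gene4606 at 0.47 ± 0.06.

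The share of the median transcript found in the pellet did not differ between stages beyond the spread of the libraries. By the authors' deposited percentages it was 18.5, 8.74 and 11.4% in oocyte replicates 1 to 3 and 20.01, 8.69 and 8.62% in eggs. The means were 12.9 ± 5.01% and 12.4 ± 6.56% (SD, n = 3), a difference of -0.44 percentage points (two-sided exact permutation p = 0.8, where 0.1 is the smallest that 3 against 3 allow). Replicate 1 was the highest in both stages, and the groups overlapped. Each median was over transcripts of at least 1 TPM in all pellet libraries of that stage, 20499 in oocytes and 20231 in eggs. The sets therefore differ between stages. Without this filter the difference was -1.17 percentage points (two-sided exact permutation p = 0.8). The mean share of the 26 extremely vegetal transcripts was 73.7, 60.5 and 67.3% in oocytes and 35.2, 16.3 and 17.3% in eggs, and that of the cell cycle list 16.7, 8.69 and 10.8% and 26.2, 14.4 and 13.5%, where the groups of the latter overlapped.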

How the data were processed

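Estimated counts and TPM per transcript were made by the authors with kallisto 0.46.2 following bcl2fastq 2.20, as the submitters' processing notes list them. The sources used here do not give the transcript index or build. Per the labels, rRNA was removed with Ribo-Zero, libraries came from a TruSeq stranded mRNA kit, and 101 cycles per end were read on 1 NovaSeq lane. The deposited attomolar signal was derived by the authors from TPM by regression on the 5 spike-ins, and the deposited percent of copies is a transcript's attomolar share over the 3 fractions of a stage and replicate number. Libraries were not pooled.

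Estimated counts of 51032 transcripts were rounded, the spike-ins left out, and low counts filtered with filterByExpr over all 18 libraries, leaving 25938. edgeR 4.0.16 (R 4.3.3) fitted its quasi-likelihood model to the 6 groups of 3 libraries with TMM factors and 12 residual degrees of freedom, and p-values were adjusted by Benjamini-Hochberg over all 25938. The contrasts were egg minus oocyte in each fraction, and the pellet change minus the cytosol or the ER change. Alternatives used DESeq2 1.42.0, limma 3.58.1 on log2(attomolar + 0.01), spike-in scaling, other filters, fewer libraries and a replicate block. They were run for the pellet change and its differences from the cytosol and ER changes, not for the cytosol or ER change alone. The scripts were run on simulated data in which few transcripts changed and all groups had the oocyte pellet means, so that run does not test the scaling. Of the deposited columns, 30 that match no library were not used. Names came from the deposited tables, 27953 matched RefSeq symbols, and 2544 transcripts share a symbol. Replicates of a group differed by more than sampling noise, so each counts as 1 library.

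The members and lists were chosen with earlier results of these data known. Genes were named by a rule: the 12 highest and 12 lowest called fold changes (named transcripts whose groups do not overlap and whose mean log2 CPM reaches 5), the 2 smallest adjusted p-values per list and direction, and a panel of vegetal, germ plasm and maturation genes. Named after their values were seen were atf3.S, bicc1, btg4.L, card19.L, ccna1, cdc6.L, commd7.S, dnd1.L, fbxo43.L, fos, foxi2, fshr.L, gdf9.S, gja1.L, golgb1, grhl1.L, h2afz.L, h3f3b.L, hist1h3g.L, hist1h4d.L, hmmr.L, hpgd.L, igsf3.S, anln-like.1.L, jun.L, kif13b.L, lipg.L, mmp1.S, myo1c, nr0b1.L, otx1.L, plk3, slbp.L, sox3 and txnip.L.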

Additional observations from a re-analysis of the deposited data

Results flagged for a closer look

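Each result here differed between fractions of the same stages, by a test of the difference itself in edgeR (adjusted p under 0.05). The egg minus oocyte change in the pellet was below that in the cytosol by -5.47 on the log2 scale for sybu.L, by -5.06 for naga.S and by -3.83 for velo1.L. It was above that in the cytosol by 3.43 for stil.L and by 2.45 for the h2afx.L model gene13554. Over all transcripts the pellet change was above the cytosol change for 6149 and below it for 6080, and above the ER change for 5157 and below it for 4180.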

How the results depend on the processing

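Counts of calls depended on the scaling. Spike-in scaling gave 1414 transcripts higher and 1229 lower in the egg pellet, and limma on attomolar values 583 and 457, with 372 lower by at least 2-fold. Against the cytosol change spike-in scaling gave 1464 above and 3203 below, and limma 675 and 3540, so that 31.4 and 16% of the calls were above in place of 50.3%. Against the ER change spike-in scaling gave 9346 above and 293 below, and limma 207 below, so that 97 and 94.4% were above in place of 55.2%. The cause was not tested. Spike-in scaling shared 2604 of its 2643 pellet calls with TMM scaling in the same direction, and limma 1033 of 1040. Every other alternative kept these counts within 1.5 times.

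The difference in the median percent of copies, which 3 against 3 libraries cannot bring under 0.05 in any setting, was 0.527 from TPM over spike-in TPM and ran from -4.23 to 2.34 with 1 library left out. Of 3117 values of 195 printed genes under alternatives, 2913 kept direction and side of the threshold, 180 lost the call, 7 gained it and 17 changed sign. The sign changes were all of genes that were not called. For cyp17a1.L they were 0.021 with spike-in scaling, 0.009 without a filter, 0.067 with limma and 0.023 without replicate 1 of both pellets, with -0.054 to 0.033 leaving out 1 library. For fshr.L they were 0.073 with limma and 0.126 with the replicate block, with -0.991 to 1.522 leaving out 1 library. For nr0b1.L they were 0.075 with limma and 0.168 with the block, with -0.76 to 1.357 leaving out 1 library. gja1.L was at 0.003 with limma and between -1.027 and 1.094 leaving out 1 library, and lhcgr.L between -0.076 and 1.036. mos.L was at 0.016 and plin2.S at 0.022 with limma.

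The labels do not say that egg and oocyte libraries of the same number share a frog, batch or day. The deviations from their group means correlated at 0.058, 0.044 and 0.031. Each oocyte library correlated best with the egg library of its own number, a weak hint from the data and not the design. Deviations within a group cancel, so these matches are not independent of each other. With the replicate block 6023 transcripts were higher and 5767 lower. Depth limits the genes near 1 CPM, which rest on few counts in each library. The counts of fshr.L ranged more widely, 7, 250 and 41 in the oocyte pellets and 64, 96 and 76 in the egg pellets. Its change of -0.453 became 1.522 without oocyte replicate 2. The alternative without replicate 1 of both pellets was chosen after seeing the data.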
